A study of Homo sapiens with 21 samples.

Results

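Clone EM2 is 1 of 6 clones of the human breast cancer cell line SUM149PT, and it is compared here with the uncloned line, labelled Parental, from which the clones were taken. SUM149PT was derived from an inflammatory breast cancer, a rare and aggressive form of the disease, and the labels give it as lacking the oestrogen receptor and the progesterone receptor. The series measured polyadenylated RNA in 7 lines (clones E, EM1, EM2, EM3, M1 and M2, and Parental) with 3 libraries each. All 3 EM2 libraries and all 3 Parental libraries were used, chosen by their labels alone, which makes 6 of the 21 libraries. The first group is clone EM2 of SUM149PT, untreated. It was set against SUM149PT Parental, untreated and not cloned. Both were grown under the conditions the cell bank recommends for the line, and no genetic change beyond those of the line itself is named for either. EM2 is a single clone, so a difference from Parental belongs to this clone and may not hold for other clones of the same kind. Parental is a culture of many cells, and its levels are averages over whatever states it holds. Nothing in the labels shows that replicate libraries were prepared from different cultures; p-values here reflect only how far the libraries spread, and that spread may be technical.

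The series asks how breast cancer cells differ along the epithelial to mesenchymal transition. In this transition epithelial cells, which are held together by cadherins, desmosomes and tight junctions and stiffened by keratin filaments, lose these contacts and take on the vimentin filaments, matrix secretion and motility of mesenchymal cells. Transcription factors of the ZEB, SNAI and TWIST families are known to repress epithelial genes during the change, while GRHL2, OVOL and ESRP genes hold the epithelial state. Cells may also stop between both ends, with epithelial and mesenchymal genes on in the same cell, and the clones named EM are the study's lines of that intermediate kind, set between the epithelial clone E and the mesenchymal clones M1 and M2. In bulk RNA such as this, fewer cells of a type and less RNA per cell cannot be told apart.

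The EM2 libraries held 44709056, 32233088 and 42744372 estimated read counts over genes, and the Parental libraries 36237466, 24602417 and 26966741. Correlations of log expression were 0.960 to 0.980 among EM2 libraries, 0.967 to 0.974 among Parental libraries and 0.940 to 0.968 between the lines. EM2 replicate 3 had the shortest mean effective transcript length of the 6 libraries, 1874 bases, against 1962 and 2012 bases in the other EM2 libraries and 1919 to 1961 bases in the Parental libraries. Replicate 3 was also the shortest library of each other clone, at 1862 bases in E, 1864 in EM1, 1878 in EM3, 1899 in M1 and 1905 in M2. In Parental, replicate 3 was the longest, at 1961 bases. With mean effective length as a covariate in the edgeR fit, 2416 genes were called between EM2 and Parental, against 1024 without it. The labels were checked against markers. Levels are given in TPM, transcripts scaled to library size and transcript length. KRT8, a keratin of breast epithelium, was abundant in both lines, with 675, 617 and 1941 TPM in EM2, against 1320.1, 562 and 1186 TPM in Parental. Other keratins (KRT5, KRT14, KRT15 and KRT19) were lower in EM2, as given below. Progesterone receptor RNA (PGR) did not exceed 0.02 TPM in any of the 6 libraries. Oestrogen receptor RNA (ESR1) was low but present, as given below. Markers of other cell types were few: of 16 blood, immune and endothelial markers, 8 were measurable and edgeR called none, against 4 at an unadjusted p under 0.05, with 2 called by DESeq2 and 0 by limma-voom. Their summed level was 112, 173 and 157 TPM in the EM2 libraries, against 79.6, 56.3 and 81.9 TPM in the Parental libraries, nearly all of it CD68, a lysosomal protein that many cell types make. The leukocyte marker PTPRC stayed at or below 0.07 TPM. The fibroblast and adipocyte markers summed to 77.4, 100.7 and 33.0 TPM in the EM2 libraries, against 24.0, 11.9 and 35.1 TPM in the Parental libraries, and 1 of the 6 measurable ones, FAP, was called.

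EM2 differed from Parental in 1024 of 18632 genes tested, or 5.50%, at an adjusted p under 0.05 in edgeR's quasi-likelihood test, whose log2 fold changes below are EM2 over Parental on counts with their standard errors. Of these, 433 genes (2.32%) were higher in EM2 and 591 (3.17%) were lower. Without adjustment 3140 genes had a p under 0.05. The 3 EM2 libraries lay wholly above or wholly below the 3 Parental libraries for 21.2% of all genes. Genes higher in EM2 made up 42.3% of the calls, but 59.2% with no low-count filter and 57.3% with limma on TPM, so the balance of directions depends on the scale and filter. The fit of the 6 libraries alone called 436 genes. Without EM2 replicate 1, EM2 replicate 3 or Parental replicate 2 there were 571, 657 and 637 calls. Of the called genes, 322 were called with the same sign in every alternative in which they could be tested. The genes described below by list come from 29 lists of 525 genes, of which 479 could be tested. Of those, 64 were called, 38 higher and 26 lower, which is 13.4%, against 5.50% over all genes. The lists were chosen with earlier results of these data known, and 8 of the calls are genes of the 9p21 list. Part of this excess may therefore follow from the choice.

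Mesenchymal genes had the most calls of the 29 lists. Of 38 measurable members of the mesenchymal list, 11 rose in EM2 and 1 fell, against 2.32% and 3.17% of all genes, and the median log2 fold change of the list was 0.91, against 0 over all genes. Leaving out 1 library at a time gave 8 to 10 that rose. VIM, which encodes vimentin, the intermediate filament of mesenchymal cells, had 1090.3, 1321 and 479.5 TPM in EM2, against 162, 65.1 and 155 TPM in Parental. All EM2 libraries were above all Parental libraries (log2 fold change 2.80 ± 0.31, edgeR adjusted p = 1.18e-05). The largest increases of the list were in matrix genes. COL6A3, a chain of type VI collagen, had 52.2, 56.5 and 39.1 TPM in EM2, against 1.5, 1.16 and 1.69 TPM in Parental (log2 fold change 5.07 ± 0.43, edgeR adjusted p = 6.30e-07). COL5A1, a chain of type V collagen, had 6.37, 6.69 and 1.09 TPM in EM2, against 0.33, 0.18 and 0.68 TPM in Parental (log2 fold change 3.87 ± 0.57, edgeR adjusted p = 0.0003). The matrix proteoglycan VCAN, known as versican, had 18.6, 36.2 and 13.9 TPM in EM2, against 1.86, 3.11 and 3.43 TPM in Parental (log2 fold change 2.85 ± 0.40, edgeR adjusted p = 0.00018). EM2 replicate 3 was the lowest EM2 library for each of these matrix genes but stayed above every Parental library. The collagen-binding proteoglycan decorin (DCN) had 236, 150.2 and 117 TPM in EM2, against 44, 58.5 and 35.3 TPM in Parental (log2 fold change 1.87 ± 0.39, edgeR adjusted p = 0.00649). Fibrillin-1 (FBN1), which builds microfibrils, had 7.5, 6.04 and 4.28 TPM in EM2, against 1.38, 2.55 and 1.39 TPM in Parental (log2 fold change 1.86 ± 0.48, edgeR adjusted p = 0.0259). FAP, a cell-surface protease that is also on the fibroblast list, had 47.8, 58.6 and 20.6 TPM in EM2, against 11.7, 6.41 and 13.4 TPM in Parental (log2 fold change 2.00 ± 0.39, edgeR adjusted p = 0.00408). For each of these 7 genes every EM2 library was above every Parental library, as held for 10.5% of all genes. Genes were named only where the lines did not overlap in counts scaled to library size, so this follows in part from the choice.

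**Figure D1:**
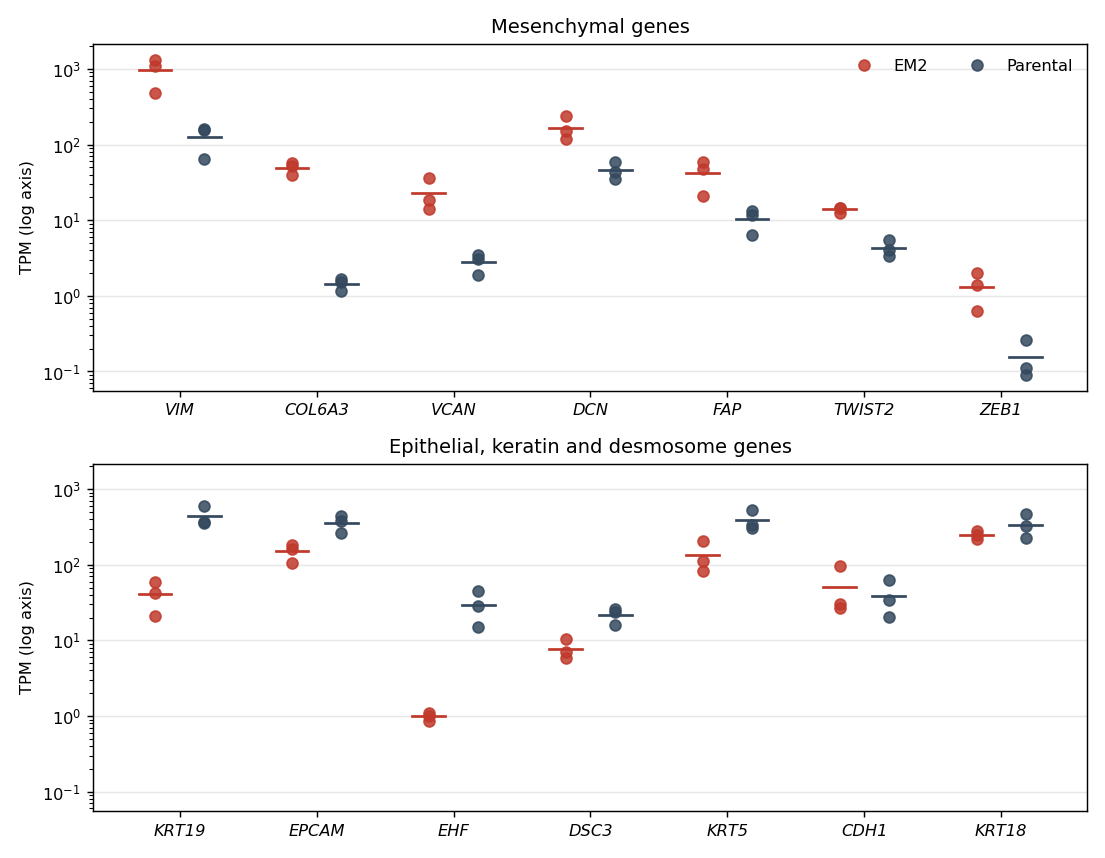
TPM on a log axis in each library (points, with the mean as a bar) for genes of the mesenchymal list (upper panel) and of the epithelial, keratin and desmosome lists (lower panel), with EM2 left of Parental. VIM lies at 479.5 to 1321 TPM in EM2 and 65.1 to 162 TPM in Parental, KRT19 at 21.2 to 60.0 TPM in EM2 and 355 to 594 TPM in Parental, and CDH1 overlaps.

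Among the transcription factors of the transition, ZEB1, a repressor of epithelial genes, had 1.98, 1.37 and 0.63 TPM in EM2, against 0.26, 0.11 and 0.09 TPM in Parental (log2 fold change 2.57 ± 0.46, edgeR adjusted p = 0.00205). ZEB1 averaged 1.33 ± 0.676 TPM in EM2, against 33.3 ± 6.09 TPM in clone M1 and 26.7 ± 6.25 TPM in clone M2 (SD, n = 3 each). TWIST2 had 14.5, 14.6 and 12.4 TPM in EM2, against 4.01, 3.41 and 5.41 TPM in Parental (log2 fold change 1.61 ± 0.18, edgeR adjusted p = 1.79e-05). The other members of these families did not pass the test: ZEB2 had a log2 fold change of 1.27 ± 0.43 (edgeR adjusted p = 0.107), SNAI1 of 1.34 ± 0.83 (edgeR adjusted p = 0.465), SNAI2 of 1.48 ± 0.55 (edgeR adjusted p = 0.153) and TWIST1 of 0.94 ± 0.50 (edgeR adjusted p = 0.37). A pair of further matrix genes did not pass either. FN1, which encodes fibronectin, had 865, 883 and 928 TPM in EM2, against 721, 269.7 and 629.5 TPM in Parental (log2 fold change 0.81 ± 0.29, edgeR adjusted p = 0.122), and the EM2 libraries were above the Parental ones. COL1A1, a chain of type I collagen, had 29, 41.6 and 11.6 TPM in EM2, against 11, 3.57 and 19.2 TPM in Parental (log2 fold change 1.56 ± 0.60, edgeR adjusted p = 0.168), and the lines overlapped. The gelatinase MMP2 was called on counts (log2 fold change 0.85 ± 0.24, edgeR adjusted p = 0.0493), but its TPM overlapped, with 22.1, 36.9 and 13.1 TPM in EM2, against 13.4, 12 and 15.1 TPM in Parental. The receptor tyrosine kinase AXL was also called (log2 fold change 1.21 ± 0.33, edgeR adjusted p = 0.0396) and stands outside the rule for naming genes, so it was chosen after its values were seen. The member that fell was CDH11, a cadherin of mesenchymal cells, with 0.24, 0.04 and 0.13 TPM in EM2, against 5.78, 1.21 and 0.94 TPM in Parental (log2 fold change -4.92 ± 0.98, edgeR adjusted p = 0.00577). N-cadherin (CDH2), whose gain is often used to mark the transition, had 24.2, 9.17 and 13.8 TPM in EM2, against 25.5, 10.3 and 22.8 TPM in Parental (log2 fold change -0.33 ± 0.40, edgeR adjusted p = 0.766). Some of these calls were lost in other fits. The call of ZEB1 was lost with the fit of the 6 libraries alone (adjusted p = 0.0674). The call of CDH11 was lost with limma-voom or limma-trend on TPM (adjusted p 0.0533 to 0.134). The call of FBN1 was lost without EM2 replicates 1 or 2 or Parental replicates 1 or 3 (adjusted p 0.0682 to 0.108) and with limma-trend on TPM (adjusted p = 0.0506). The call of AXL was lost without EM2 replicates 1 or 3 or Parental replicates 2 or 3 (adjusted p 0.113 to 0.185) and with the fit of the 6 libraries alone (adjusted p = 0.194). The call of MMP2 was lost without EM2 replicates 1 or 2 or Parental replicates 1, 2 or 3 (adjusted p 0.0786 to 0.205) and with DESeq2 size factors, limma-voom, limma-trend on TPM or the fit of the 6 libraries alone (adjusted p 0.0516 to 0.185).

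Epithelial genes fell in part. Of the 30 genes of the epithelial identity list 3 were called, all lower in EM2, against 3.17% of all genes. The list median was −0.44. EHF, an epithelial transcription factor of the ETS family, had 0.85, 1 and 1.11 TPM in EM2, against 14.9, 28.4 and 44.6 TPM in Parental (log2 fold change -4.97 ± 0.73, edgeR adjusted p = 0.0003). EPCAM, the epithelial cell adhesion molecule, had 159, 183 and 107 TPM in EM2, against 379.8, 260.0 and 444 TPM in Parental (log2 fold change -1.31 ± 0.34, edgeR adjusted p = 0.0266). The tight junction protein gene MARVELD3 had 3.76, 4.55 and 3.67 TPM in EM2, against 6.71, 6.87 and 10.3 TPM in Parental (log2 fold change -1.09 ± 0.26, edgeR adjusted p = 0.0181). E-cadherin (CDH1), the adhesion molecule of epithelial junctions, had 30.5, 26.8 and 95.1 TPM in EM2, against 34.2, 20.2 and 63 TPM in Parental, and the lines overlapped (log2 fold change 0.24 ± 0.54, edgeR adjusted p = 0.895). Nor did the guardians of the epithelial state pass: GRHL2 had a log2 fold change of -0.92 ± 0.29 (edgeR adjusted p = 0.0756) and the splicing regulator ESRP1 of -0.51 ± 0.66 (edgeR adjusted p = 0.788). Of the 11 tight junction genes edgeR called none, against 3 at an unadjusted p under 0.05, with 0 called by DESeq2 and 0 by limma-voom. In EM2, 2 of them lay wholly below Parental and 1 wholly above, against 10.7% and 10.5% of all genes. Without 1 library at a time, 1 to 3 epithelial genes were called lower. It was 1 epithelial gene without EM2 replicate 1 or 2 or Parental replicate 3, and 2 without EM2 replicate 3. EHF, EPCAM and MARVELD3 did not overlap between the lines, which the rule for naming genes requires on counts. The call of EPCAM was lost without EM2 replicates 1, 2 or 3 or Parental replicates 1 or 3 (adjusted p 0.05 to 0.104) and with limma-trend on TPM (adjusted p = 0.093). The call of MARVELD3 was lost without EM2 replicates 1 or 2 or Parental replicates 1 or 3 (adjusted p 0.0514 to 0.087) and with no low-count filter (adjusted p = 0.067).

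Every keratin and desmosome gene that was called in edgeR's test was lower in EM2. KRT19, a keratin of simple epithelium, had 21.2, 60.0 and 42.3 TPM in EM2, against 369, 355 and 594 TPM in Parental (log2 fold change -3.30 ± 0.61, edgeR adjusted p = 0.00271), and it was the 1 called member of the 6 simple keratins. KRT7, KRT8 and KRT18 of the same list were not called, with log2 fold changes of 0.40 ± 0.29 (edgeR adjusted p = 0.557), -0.55 ± 0.34 (edgeR adjusted p = 0.46) and -0.55 ± 0.32 (edgeR adjusted p = 0.425). In the basal and squamous list, 3 of 25 measurable genes were called, all lower and all keratins, against 3.17% of all genes called lower. KRT5 had 112, 82.8 and 203 TPM in EM2, against 333, 535 and 304 TPM in Parental (log2 fold change -1.54 ± 0.41, edgeR adjusted p = 0.0337). KRT14, its partner in the filament, had 0.67, 0.77 and 2.38 TPM in EM2, against 7.14, 5.09 and 9.07 TPM in Parental (log2 fold change -2.18 ± 0.56, edgeR adjusted p = 0.0259). KRT15 had 1.19, 2.02 and 1.71 TPM in EM2, against 5.67, 19.6 and 11.6 TPM in Parental (log2 fold change -2.61 ± 0.59, edgeR adjusted p = 0.0121). None of these 3 keratins overlapped between the lines, which the rule for naming genes requires on counts. KRT5 remained the most abundant of them in EM2. The stress keratin KRT17 was not called (log2 fold change 1.26 ± 1.15, edgeR adjusted p = 0.662); it had 52.3, 33.5 and 919.9 TPM in EM2, against 287, 147 and 102 TPM in Parental, so that EM2 replicate 3 alone was above all Parental libraries and the other EM2 libraries were below them all. Desmosomes are rivets between epithelial cells, made of desmocollins and desmogleins that plakophilins tie to keratin. Of the 11 desmosome genes 4 fell, against 3.17% of all genes. The desmocollin DSC3 had 5.88, 7 and 10.3 TPM in EM2, against 15.9, 23.9 and 26.1 TPM in Parental (log2 fold change -1.70 ± 0.28, edgeR adjusted p = 0.000987). DSC2 had 1.97, 6.3 and 2.17 TPM in EM2, against 5.78, 11.2 and 17.5 TPM in Parental (log2 fold change -1.78 ± 0.49, edgeR adjusted p = 0.0385), so the highest EM2 library was above the lowest Parental library in TPM. The plakophilin PKP1 had 6.3, 10.6 and 10.9 TPM in EM2, against 17.5, 19.9 and 29.1 TPM in Parental (log2 fold change -1.30 ± 0.29, edgeR adjusted p = 0.0112). PKP2 was the fourth (log2 fold change -1.12 ± 0.32, edgeR adjusted p = 0.0479) and stands outside the rule for naming genes. Without 1 library at a time the basal list gave 0 to 3 calls, with 0 without EM2 replicate 1 or 2 and 3 without EM2 replicate 3. The desmosome list gave 1 call without EM2 replicate 1 and 2 or 3 without any other library. The call of KRT5 was lost without EM2 replicates 1 or 2 or Parental replicates 1 or 2 (adjusted p 0.0586 to 0.199) and with the fit of the 6 libraries alone (adjusted p = 0.151). The call of KRT14 was lost without EM2 replicates 1 or 2 or Parental replicates 1 or 3 (adjusted p 0.0601 to 0.128) and with the fit of the 6 libraries alone (adjusted p = 0.114). The call of KRT15 was lost without EM2 replicates 1 or 2 or Parental replicate 2 (adjusted p 0.0513 to 0.082). The call of DSC2 was lost without EM2 replicates 1 or 3 or Parental replicates 2 or 3 (adjusted p 0.0967 to 0.174) and with limma-trend on TPM or the fit of the 6 libraries alone (adjusted p 0.0505 to 0.0937). The call of PKP1 was lost without EM2 replicate 1 (adjusted p = 0.0763). The call of PKP2 was lost without EM2 replicates 1 or 2 or Parental replicates 1 or 3 (adjusted p 0.119 to 0.197) and with the fit of the 6 libraries alone (adjusted p = 0.227).

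ZEB and SNAI factors bind the letters CAGGTG. The 250 bases upstream of gene starts were searched for these letters on both strands in the RefSeq promoter table of GRCh38.p14. Of the 10 lower genes named from the epithelial, keratin and desmosome lists, 5 had an entry and 2 of those held CAGGTG, against 16.3% of the 12422 matched genes. These were KRT5, 130 bases upstream of the start, and DSC2, 156 bases upstream. Named genes that rose held a match too, among them ZEB1, RUNX3, DNMT3A and IFT74. Of the largest decreases 2 of 10 matched genes held it, and of the largest increases 1 of 10. Binding at these sites was not tested. The KRT5 and DSC2 stretches are shown because both genes fell, with the match (CAGGTG, or CACCTG where it lies on the other strand) in capitals, read 5′ to 3′ on the strand of the gene. The KRT5 stretch is chr12:52520494-52520549 and the DSC2 stretch is chr18:31102547-31102602, both on the minus strand.
KRT5: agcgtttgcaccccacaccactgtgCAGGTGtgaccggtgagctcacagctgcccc
DSC2: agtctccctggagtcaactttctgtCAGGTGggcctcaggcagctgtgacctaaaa

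Of 16 measurable genes for matrix-cutting proteases and their inhibitors, 3 rose and 1 fell, against 2.32% and 3.17% of all genes. The median log2 fold change of the list was 1.38, against 0 over all genes, with 14 values above 0 and 2 below, and 12 of the 16 genes had an unadjusted p under 0.05. Without Parental replicate 1, 5 genes of the list were called higher, and without Parental replicate 3 it was 1. MMP7, a protease made mainly by epithelial cells, had 0.78, 0.73 and 0.71 TPM in EM2, against 38.8, 155 and 38.5 TPM in Parental (log2 fold change -6.80 ± 0.91, edgeR adjusted p = 0.000115). The EM2 libraries were close to each other, and all Parental libraries were far above them. TIMP2, an inhibitor of metalloproteinases, had 17.8, 22.5 and 14.6 TPM in EM2, against 5.34, 7.6 and 9.52 TPM in Parental (log2 fold change 1.24 ± 0.23, edgeR adjusted p = 0.00287). The membrane protease ADAM12 had 1.83, 2.96 and 1.29 TPM in EM2, against 0.55, 0.63 and 0.7 TPM in Parental (log2 fold change 1.34 ± 0.34, edgeR adjusted p = 0.026). The secreted serine protease inhibitor SERPINE2 had 382, 149.8 and 804 TPM in EM2, against 107, 61.7 and 45.9 TPM in Parental (log2 fold change 2.66 ± 0.66, edgeR adjusted p = 0.0214), with EM2 replicate 3 the highest. The call of SERPINE2 was lost without EM2 replicate 3 or Parental replicates 2 or 3 (adjusted p 0.098 to 0.151) and with the fit of the 6 libraries alone (adjusted p = 0.102). The call of ADAM12 was lost without EM2 replicates 1 or 2 or Parental replicates 1 or 3 (adjusted p 0.0692 to 0.105) and with limma-voom, limma-trend on TPM or the fit of the 6 libraries alone (adjusted p 0.0696 to 0.078). The membrane-bound protease MMP14 missed the threshold (log2 fold change 1.33 ± 0.39, edgeR adjusted p = 0.0513), with 19.1, 34.5 and 20.4 TPM in EM2, against 6.05, 8.45 and 12.4 TPM in Parental. Of 11 integrins 1 was called, ITGA1, the alpha subunit of a collagen receptor, which had 5.57, 5.15 and 11.6 TPM in EM2, against 1.09, 1.38 and 1.88 TPM in Parental (log2 fold change 2.30 ± 0.43, edgeR adjusted p = 0.0029). All 11 integrins had log2 fold changes above 0, with a median of 0.79, and 5 had an unadjusted p under 0.05 in edgeR's test.

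Growth factor genes gave 3 higher and 1 lower of 27 measurable members, against 2.32% and 3.17% of all genes. FGFR1 and FGFR2, receptors for fibroblast growth factors, moved in opposite directions. FGFR1 was higher on counts (log2 fold change 2.68 ± 0.27, edgeR adjusted p = 5.50e-06) and had 8.49, 9.04 and 23.2 TPM in EM2, against 3.69, 1.96 and 6.83 TPM in Parental. The difference was smaller in TPM, which divides by a transcript length estimated per library, and limma on TPM gave an adjusted p of 0.233. FGFR2, a receptor of the same family that epithelium expresses, had 0.11, 0.1 and 0.05 TPM in EM2, against 0.93, 1.2 and 1.15 TPM in Parental (log2 fold change -4.21 ± 0.65, edgeR adjusted p = 0.000474). The IGF-binding protein IGFBP7 had 2.01, 3.2 and 1.4 TPM in EM2, against 0.35, 0.14 and 0.44 TPM in Parental (log2 fold change 2.88 ± 0.54, edgeR adjusted p = 0.00307). NRP1, a co-receptor for semaphorins and VEGF, had 41.3, 42.1 and 43.2 TPM in EM2, against 22.1, 10.9 and 18.6 TPM in Parental (log2 fold change 1.12 ± 0.30, edgeR adjusted p = 0.0331). The call of IGFBP7 was lost with limma-voom or limma-trend on TPM (adjusted p 0.0614 to 0.164). The call of NRP1 was lost without EM2 replicates 1, 2 or 3 or Parental replicates 2 or 3 (adjusted p 0.0578 to 0.125) and with the fit of the 6 libraries alone (adjusted p = 0.142). In the TGF-beta and BMP list, 2 of 23 members were called, both higher, against 2.32% of all genes. Both encode proteins that hold latent TGF-beta in the matrix or build microfibrils. LTBP1 had 9.07, 12 and 15.7 TPM in EM2, against 1.36, 1.3 and 1.55 TPM in Parental (log2 fold change 2.95 ± 0.27, edgeR adjusted p = 1.67e-06). LTBP2 had 7.91, 8.75 and 6.41 TPM in EM2, against 2.88, 2.03 and 4.48 TPM in Parental (log2 fold change 1.33 ± 0.31, edgeR adjusted p = 0.014). The call of LTBP2 was lost without Parental replicate 2 (adjusted p = 0.0871). The ligand TGFB1 itself missed the threshold (log2 fold change 1.01 ± 0.31, edgeR adjusted p = 0.0681) although every EM2 library lay above every Parental library, with 35.7, 38.9 and 35.4 TPM in EM2, against 19, 16.3 and 18.2 TPM in Parental.

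Among chemokines and cytokines, 2 of 24 measurable members rose and 2 fell, against 2.32% and 3.17% of all genes. IL33, an alarmin of the IL1 family, had 77.5, 129 and 59.8 TPM in EM2, against 12.3, 5.76 and 24.9 TPM in Parental (log2 fold change 2.59 ± 0.45, edgeR adjusted p = 0.00153). IL18, of the same family, had 45.8, 38.3 and 25.9 TPM in EM2, against 88.9, 86.7 and 123 TPM in Parental (log2 fold change -1.50 ± 0.30, edgeR adjusted p = 0.00432). The call of IL18 was lost with limma-trend on TPM (adjusted p = 0.0623). CSF3 (log2 fold change 3.65 ± 0.93, edgeR adjusted p = 0.0262) and CXCL5 (log2 fold change -3.78 ± 0.79, edgeR adjusted p = 0.00864) were called at low levels outside the naming rule. The call of CSF3 was lost without EM2 replicate 3 or Parental replicates 2 or 3 (adjusted p 0.112 to 0.253) and with limma-voom or the fit of the 6 libraries alone (adjusted p 0.0917 to 0.184). The call of CXCL5 was lost with the fit of the 6 libraries alone (adjusted p = 0.0687). In the hypoxia and glycolysis list, 2 of 23 genes rose and 2 fell, against the same shares of all genes. The list median was 0.55, with 19 values above 0 and 4 below, and 11 genes had an unadjusted p under 0.05 in edgeR's test. The glucose transporter SLC2A3 had 2.63, 4.15 and 2.54 TPM in EM2, against 0.5, 0.15 and 0.42 TPM in Parental (log2 fold change 2.44 ± 0.44, edgeR adjusted p = 0.00199). The hexokinase HK2 had 18, 22.4 and 20.3 TPM in EM2, against 13.8, 9.6 and 12.4 TPM in Parental (log2 fold change 0.73 ± 0.21, edgeR adjusted p = 0.0451). The lines did not overlap for either gene, which the rule for naming genes requires on counts. The aldolase ALDOC had 0.19, 0.44 and 0.17 TPM in EM2, against 3.22, 4.16 and 6.7 TPM in Parental (log2 fold change -3.87 ± 0.61, edgeR adjusted p = 0.000573). The enolase ENO2 had 17.9, 16.7 and 7.6 TPM in EM2, against 27.7, 34.2 and 39.5 TPM in Parental (log2 fold change -1.45 ± 0.39, edgeR adjusted p = 0.0365). The call of HK2 was lost without EM2 replicates 1, 2 or 3 or Parental replicates 2 or 3 (adjusted p 0.0569 to 0.209) and with no low-count filter or the fit of the 6 libraries alone (adjusted p 0.055 to 0.175). The call of ENO2 was lost without EM2 replicates 1, 2 or 3 or Parental replicates 1, 2 or 3 (adjusted p 0.0577 to 0.158). Of 13 YAP and TEAD targets 2 were higher (AMOTL1, log2 fold change 0.88 ± 0.23, edgeR adjusted p = 0.0292, and AXL) and 2 lower (TEAD4, log2 fold change -1.66 ± 0.28, edgeR adjusted p = 0.00142, and ANKRD1, log2 fold change -3.93 ± 1.13, edgeR adjusted p = 0.0498). TEAD4, a DNA-binding partner of YAP, had 14.6, 8.44 and 7.36 TPM in EM2, against 27.4, 19 and 31.6 TPM in Parental. The call of AMOTL1 was lost without EM2 replicates 1 or 3 or Parental replicates 2 or 3 (adjusted p 0.0846 to 0.135) and with the fit of the 6 libraries alone (adjusted p = 0.165). The call of ANKRD1 was lost without EM2 replicates 1, 2 or 3 or Parental replicates 1 or 3 (adjusted p 0.0623 to 0.229) and with limma-voom (adjusted p = 0.158). It was also lost in the edgeR fit with the replicate number as a block (adjusted p = 0.0573).

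**Figure D2:**
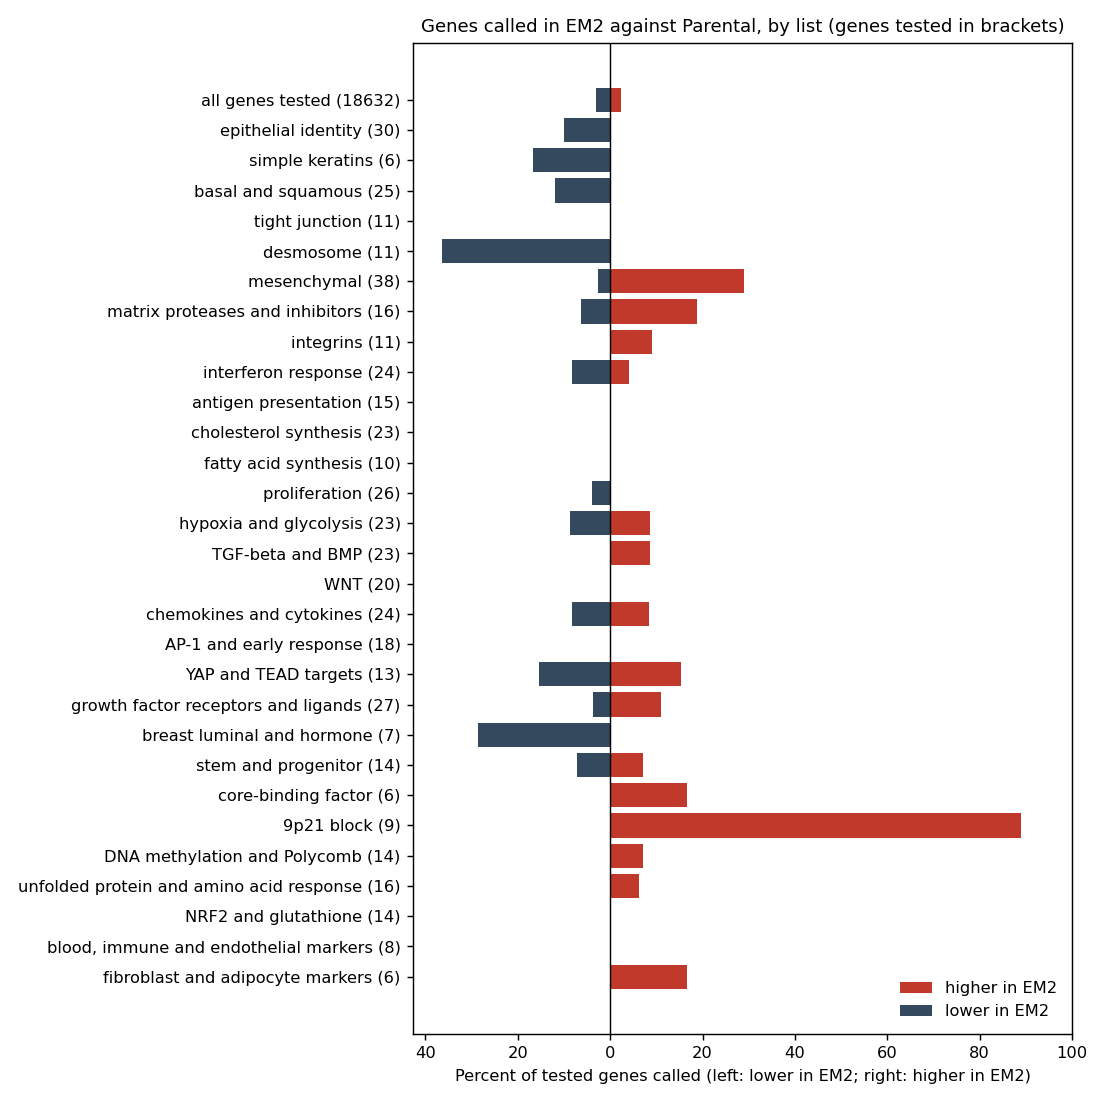
Percent of the tested genes of each list called higher in EM2 than in Parental (right of 0) or lower (left of 0), with the number tested in brackets and all 18632 tested genes at the top. The longest bars are those of the 9p21 list, with 8 of 9 genes higher, and of the desmosome list, with 4 of 11 lower, while the tight junction and antigen presentation lists have none.

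Few genes of the other lists were called, beside 2.32% higher and 3.17% lower over all genes. Of the 23 cholesterol synthesis genes edgeR called none, against 2 at an unadjusted p under 0.05, with 0 called by DESeq2 and 0 by limma-voom. Among the 10 fatty acid synthesis genes edgeR called none, against 1 at an unadjusted p under 0.05, with 0 called by DESeq2 and 0 by limma-voom. Of the 20 WNT genes edgeR called none, against 5 at an unadjusted p under 0.05, with 3 called by DESeq2 and 0 by limma-voom. Among the 15 antigen presentation genes edgeR called none, against 3 at an unadjusted p under 0.05, with 1 called by DESeq2 and 0 by limma-voom. Of the 18 AP-1 and early response genes edgeR called none, against 0 at an unadjusted p under 0.05, with 0 called by DESeq2 and 0 by limma-voom. Among the 14 NRF2 and glutathione genes edgeR called none, against 6 at an unadjusted p under 0.05, with 0 called by DESeq2 and 0 by limma-voom. Of 26 proliferation genes 1 was called: FOXM1, a transcription factor of the G2 and M phases, had 43.9, 43.3 and 32.4 TPM in EM2, against 79.2, 80.7 and 90.3 TPM in Parental (log2 fold change -1.20 ± 0.20, edgeR adjusted p = 0.000851). The Notch ligand JAG2 had 0.29, 0.47 and 0.13 TPM in EM2, against 4.58, 3.47 and 6.95 TPM in Parental (log2 fold change -4.15 ± 0.41, edgeR adjusted p = 4.87e-06). HEY1, a target of Notch receptors, had 1.37, 1.43 and 1.81 TPM in EM2, against 0.34, 0.2 and 0.84 TPM in Parental (log2 fold change 1.75 ± 0.45, edgeR adjusted p = 0.0278). Thus 1 of 14 stem and progenitor genes went each way. The call of HEY1 was lost without EM2 replicates 1, 2 or 3 or Parental replicates 1 or 2 (adjusted p 0.0521 to 0.113) and with the fit of the 6 libraries alone (adjusted p = 0.133). The hyaluronan receptor CD44, often used as a marker of breast stem cells, was not called, with 1522, 1276 and 1597 TPM in EM2, against 1789, 804 and 939 TPM in Parental (log2 fold change 0.51 ± 0.31, edgeR adjusted p = 0.446). RUNX3, a runt-domain transcription factor that works with CBFB, had 30.2, 32.9 and 31.7 TPM in EM2, against 10.4, 6.83 and 13.8 TPM in Parental (log2 fold change 1.15 ± 0.27, edgeR adjusted p = 0.0174), while CBFB itself was not called (log2 fold change 0.21 ± 0.29, edgeR adjusted p = 0.799). DNMT3A, a DNA methyltransferase, had 3.29, 2.12 and 3.68 TPM in EM2, against 1.41, 0.77 and 1.76 TPM in Parental (log2 fold change 1.35 ± 0.32, edgeR adjusted p = 0.0177). VLDLR, the 1 called gene of 16 on the unfolded protein list and a lipoprotein receptor, had 0.81, 1.25 and 0.59 TPM in EM2, against 0.13, 0.07 and 0.45 TPM in Parental (log2 fold change 1.95 ± 0.56, edgeR adjusted p = 0.0488). The call of RUNX3 was lost without EM2 replicates 1 or 2 or Parental replicates 2 or 3 (adjusted p 0.0522 to 0.092). The call of DNMT3A was lost without EM2 replicates 1 or 3 or Parental replicates 2 or 3 (adjusted p 0.0622 to 0.0955) and with the fit of the 6 libraries alone (adjusted p = 0.0581). The call of VLDLR was lost without EM2 replicates 1, 2 or 3 or Parental replicates 1 or 2 (adjusted p 0.0606 to 0.203) and with the fit of the 6 libraries alone (adjusted p = 0.179).

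The largest increases held transcription factors that Parental barely expressed. The forkhead factor FOXC2, linked to the mesenchymal state, had 2.34, 0.99 and 5.9 TPM in EM2, against 0 TPM in all 3 Parental libraries. No Parental read was counted, so FOXC2 was at least 305-fold higher (floor of 3 counts over the group, edgeR adjusted p = 0.00012). The T-box repressor TBX3, needed for mammary development, had 17, 8.4 and 33.1 TPM in EM2, against 0.07, 0.13 and 0.09 TPM in Parental (log2 fold change 6.97 ± 0.67, edgeR adjusted p = 6.14e-06). SOD3, the extracellular superoxide dismutase, had 5.81, 28.1 and 9.91 TPM in EM2, against 0 TPM in all 3 Parental libraries, and was at least 84-fold higher (edgeR adjusted p = 0.00212). SOD3 averaged 0 TPM in each of the other lines, at the precision of the files.

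**Figure D3:**
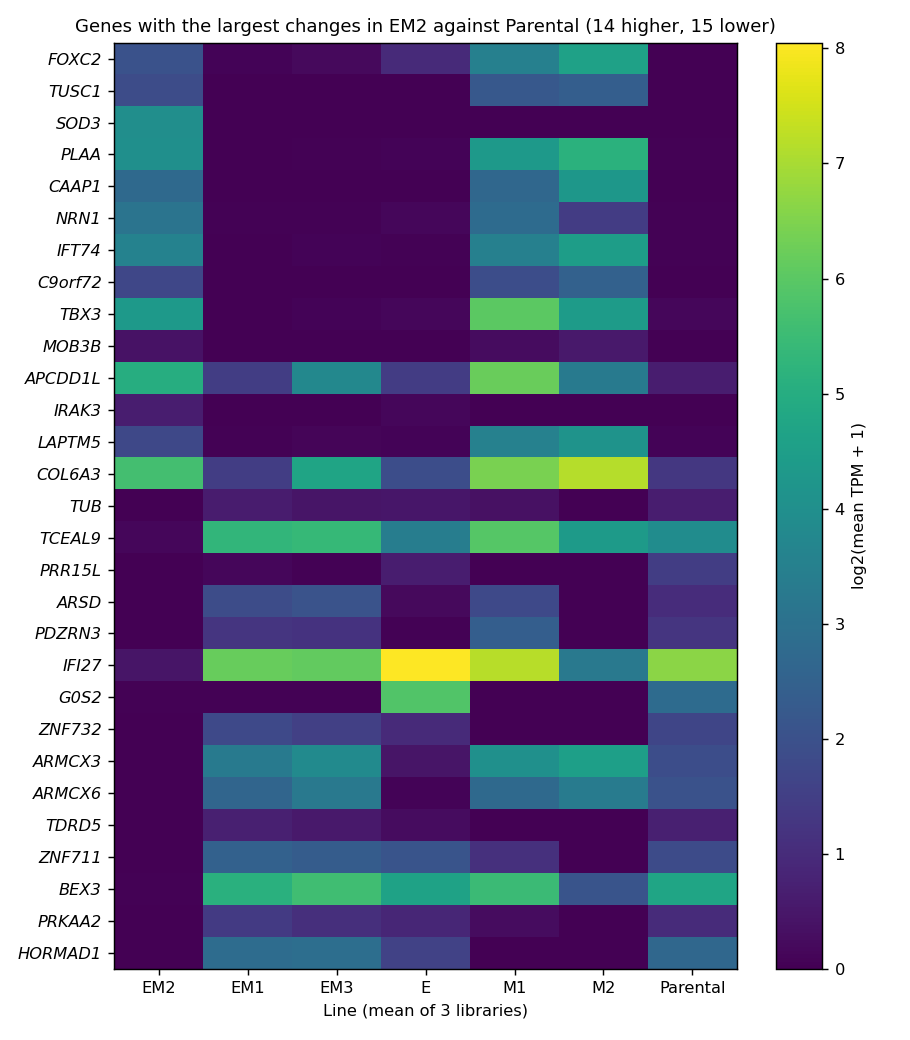
Colour gives log2(mean TPM + 1) over 3 libraries in each line, from EM2 at the left to Parental at the right, for 14 genes of the largest increases and 15 of the largest decreases in EM2 against Parental. TBX3 is near 0 in EM1, EM3, E and Parental but not in EM2, M1 and M2, and SOD3 is above 0 in EM2 but not in the other lines.

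Further genes switched on in EM2 were NRN1, APCDD1L, LAPTM5 and IRAK3. NRN1, a small protein anchored on neurons, had 7.32, 9.16 and 6.31 TPM in EM2, against 0, 0.05 and 0.02 TPM in Parental, higher by 335-fold (95% counting interval 115 to 1626, edgeR adjusted p = 4.98e-07). Where 1 to 3 reads were counted over a line, as here in Parental, the fold is a ratio of counts scaled to library size. APCDD1L, a relative of a WNT inhibitor, had 37.2, 26.9 and 29.1 TPM in EM2, against 0.48, 0.67 and 0.55 TPM in Parental (log2 fold change 5.58 ± 0.49, edgeR adjusted p = 1.15e-06). LAPTM5, a lysosomal membrane protein usually studied in blood cells, had 3.73, 1.6 and 1.68 TPM in EM2, against 0.05, 0.06 and 0.09 TPM in Parental (log2 fold change 5.08 ± 0.78, edgeR adjusted p = 0.00049). The call of LAPTM5 was lost with limma-trend on TPM (adjusted p = 0.0627). IRAK3, a brake on toll-like receptor signalling, had 0.48, 0.74 and 0.5 TPM in EM2, against 0.01, 0.02 and 0.02 TPM in Parental (log2 fold change 5.58 ± 0.78, edgeR adjusted p = 0.000179). For each of these 4 genes all EM2 libraries were above all Parental libraries, which the rule for naming genes requires on counts. Of 7 measurable genes of the luminal and hormone list 2 were called, both lower in EM2, against 3.17% of all genes. AGR2, a secretory pathway chaperone of luminal cells, had 0.08, 0.3 and 0.26 TPM in EM2, against 2.17, 6.12 and 7.14 TPM in Parental (log2 fold change -4.56 ± 0.69, edgeR adjusted p = 0.000427). ESR1 had 0.09, 0.52 and 0.21 TPM in EM2, against 0.39, 0.37 and 0.94 TPM in Parental; the lines overlapped in TPM, although the counts gave a lower level in EM2 (log2 fold change -2.15 ± 0.40, edgeR adjusted p = 0.00261). The receptor tyrosine kinase gene ERBB2 was not called, with 10.1, 15.1 and 8.86 TPM in EM2, against 8.56, 11.8 and 15.8 TPM in Parental.

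Another set of genes was nearly silent in EM2 and on in Parental. HORMAD1, a meiotic chromosome protein that is normally confined to germ cells, had 0 TPM in all 3 EM2 libraries, against 3.99, 6.94 and 5.39 TPM in Parental, and was at least 224-fold lower (edgeR adjusted p = 6.14e-06). TDRD5, a tudor-domain protein of the germ line, had 0 TPM in all 3 EM2 libraries, against 0.33, 0.73 and 0.86 TPM in Parental, and was at least 93-fold lower (edgeR adjusted p = 5.46e-06). PRKAA2, a catalytic subunit of the energy sensor AMPK, had 0 TPM in all 3 EM2 libraries, against 0.55, 1.12 and 1.34 TPM in Parental, lower by 1253-fold (95% counting interval 225 to 49478, edgeR adjusted p = 6.54e-09). ZNF711, a zinc finger activator on the X chromosome, had 0, 0 and 0.01 TPM in EM2, against 1.74, 3.91 and 2.11 TPM in Parental, lower by 1128-fold (95% counting interval 202 to 44546, edgeR adjusted p = 1.46e-07). The zinc finger gene ZNF732 had 0.01, 0.02 and 0 TPM in EM2, against 1.41, 2.58 and 2.56 TPM in Parental, lower by 288-fold (95% counting interval 79.8 to 2380.3, edgeR adjusted p = 1.67e-05). All of these were on in EM1 and EM3 as well: HORMAD1 averaged 6.21 ± 4.03 and 6.47 ± 3.74 TPM there, PRKAA2 1.56 ± 0.463 and 1.11 ± 0.307 TPM, and ZNF711 4.66 ± 0.35 and 4.04 ± 0.34 TPM (SD, n = 3 each). In M2 each of these 5 averaged 0 TPM at the precision of the files.

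Other members of the 15 largest decreases were G0S2, PRR15L, PDZRN3, ARSD and TUB, and G0S2 and PRR15L each had 1 Parental library far above the others. G0S2, an inhibitor of lipid breakdown, had 0.04, 0 and 0.03 TPM in EM2, against 14.8, 0.65 and 2.45 TPM in Parental, with Parental replicate 1 far above the others; it was lower by 298-fold (95% counting interval 82.4 to 2457, edgeR adjusted p = 0.00149). The call of G0S2 was lost with the fit of the 6 libraries alone (adjusted p = 0.0515). G0S2 was also near 0 in EM1 and EM3, at 0.0333 ± 0.0577 TPM in each (SD, n = 3). PRR15L had 0, 0.02 and 0 TPM in EM2, against 0.19, 0.68 and 4.35 TPM in Parental, with Parental replicate 3 the highest, and was lower by 268-fold (95% counting interval 48.2 to 10599, edgeR adjusted p = 0.0031). PDZRN3, a ubiquitin ligase, had 0, 0.02 and 0 TPM in EM2, against 0.99, 2.54 and 0.57 TPM in Parental, lower by 274-fold (95% counting interval 49.1 to 10808, edgeR adjusted p = 2.62e-05). ARSD, of the sulfatase family, had 0.02, 0 and 0 TPM in EM2, against 0.92, 0.92 and 1.21 TPM in Parental, lower by 227-fold (95% counting interval 62.9 to 1876, edgeR adjusted p = 2.82e-07). TUB, known for obesity in the mouse, had 0.01, 0 and 0 TPM in EM2, against 0.32, 0.73 and 0.63 TPM in Parental, lower by 145-fold (95% counting interval 49.5 to 702, edgeR adjusted p = 5.46e-06).

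CG pairs are the letters at which vertebrate DNA is methylated, and promoters differ in how many they hold. Of the 15 genes with the largest decreases 10 had a promoter entry, and their 250 upstream bases held a median of 13.5 CG pairs, from 3 to 39, against a median of 20 over the 12422 matched genes. The 14 genes of the largest increases, 10 of them matched, also had a median of 13.5, from 3 to 24. The genes that were silent in EM2 thus had both CG-rich and CG-poor starts. PRKAA2 held 39 pairs, ZNF711 held 27 and BEX3, an X-linked gene described below, held 4. The 100 bases next to the start of each are shown with CG in capitals, all on the plus strand, at chr1:56645214-56645313, chrX:85243891-85243990 and chrX:103376223-103376322.
PRKAA2: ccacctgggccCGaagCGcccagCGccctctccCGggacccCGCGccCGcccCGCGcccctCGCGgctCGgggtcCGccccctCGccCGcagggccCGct
ZNF711: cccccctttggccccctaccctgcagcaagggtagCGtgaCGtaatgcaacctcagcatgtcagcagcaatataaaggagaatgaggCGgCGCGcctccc
BEX3: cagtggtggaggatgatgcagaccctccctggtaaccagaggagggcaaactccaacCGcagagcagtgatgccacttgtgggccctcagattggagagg

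Interferon-response genes did not move together. Of 24 measurable members 1 rose and 2 fell, against 2.32% and 3.17% of all genes, with a list median of 0.16. IFI27, a mitochondrial protein that interferon induces strongly, had 0.36, 0.63 and 0.1 TPM in EM2, against 90.0, 91.8 and 118 TPM in Parental, a near absence in EM2 (log2 fold change -7.78 ± 0.39, edgeR adjusted p = 5.59e-10). The other lines except M2 held it, at 264 ± 58.6 TPM in E, 70.8 ± 32.4 TPM in EM1, 68.9 ± 22.6 TPM in EM3 and 145 ± 10.5 TPM in M1, against 8.51 ± 4.72 TPM in M2 (SD, n = 3 each). USP18, which removes the ubiquitin-like protein ISG15, had 0.71, 0.86 and 0.52 TPM in EM2, against 1.29, 1.24 and 1.72 TPM in Parental (log2 fold change -1.12 ± 0.30, edgeR adjusted p = 0.0318). The call of USP18 was lost without EM2 replicates 1, 2 or 3 or Parental replicates 1, 2 or 3 (adjusted p 0.0625 to 0.134) and with no low-count filter, limma-trend on TPM or the fit of the 6 libraries alone (adjusted p 0.122 to 0.264). OAS1, an RNA sensor outside the naming rule, had 0.83, 1.07 and 0.98 TPM in EM2, against 0.1, 0.2 and 0.23 TPM in Parental (log2 fold change 2.40 ± 0.47, edgeR adjusted p = 0.00425). The interferon response element holds the letters GAAA followed, after any 2 bases, by GAAA again, which lie on either strand in the 250 upstream bases of 2.37% of matched genes. IFI27 has 2 such matches, 108 and 95 bases upstream, and its stretch is shown, with both in capitals, because IFI27 had the largest change on the list. It lies at chr14:94110616-94110735 on the plus strand.
IFI27: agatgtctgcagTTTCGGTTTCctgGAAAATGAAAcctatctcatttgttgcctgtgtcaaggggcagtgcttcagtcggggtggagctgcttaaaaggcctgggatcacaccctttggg

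Next to each other on the short arm of chromosome 9, genes of band 9p21 were on in EM2 and off in Parental. Of 17 genes on the 9p21 list 9 could be tested, and 8 rose, against 2.32% of all genes. This list was chosen with earlier results of these data known. A gene that is off in Parental could pass the low-count filter only through lines in which it is on. The share that rose therefore follows in part from the choice and describes the block without testing it. The median log2 fold change of the 9 genes was 8.02, or 7.32 with genes that had no Parental count set at their bound. PLAA, a ubiquitin-binding protein, had 15.9, 16.9 and 12.9 TPM in EM2, against 0.06, 0.02 and 0.02 TPM in Parental (log2 fold change 8.52 ± 0.49, edgeR adjusted p = 3.55e-09). IFT74, a subunit of the transport complex of cilia, had 11.3, 12.3 and 9.08 TPM in EM2, against 0.01, 0.03 and 0.06 TPM in Parental (log2 fold change 8.08 ± 0.83, edgeR adjusted p = 5.46e-06). PLAA (26904083 to 26947463, minus strand) and IFT74 (26947039 to 27062930, plus strand) overlap at their ends, and the strand setting of the counting is not given in the sources used here, so their reads may be shared. CAAP1, linked to apoptosis, had 6.39, 5.82 and 5.2 TPM in EM2, against 0, 0.03 and 0 TPM in Parental, higher by 373-fold (95% counting interval 103 to 3083, edgeR adjusted p = 6.45e-06). C9orf72, known from a repeat expansion in motor neuron disease, had 2.11, 2.65 and 2.01 TPM in EM2, against 0, 0.06 and 0 TPM in Parental, higher by 201-fold (95% counting interval 55.5 to 1657, edgeR adjusted p = 2.62e-05). TUSC1, a candidate tumour suppressor, had 3.02, 2.81 and 2.18 TPM in EM2, against 0 TPM in all 3 Parental libraries, and was at least 160-fold higher (edgeR adjusted p = 5.46e-06). MOB3B, of a family of kinase activators, had 0.38, 0.37 and 0.19 TPM in EM2, against 0, 0.06 and 0 TPM in Parental, higher by 98.2-fold (95% counting interval 27.2 to 811, edgeR adjusted p = 0.000793). TEK and LINGO2 were called at lower levels outside the naming rule. TEK, a receptor of angiopoietins, had 0.19, 0.09 and 0.26 TPM in EM2, against 0 TPM in all 3 Parental libraries. LINGO2 had 0.04, 0.18 and 0.25 TPM in EM2, against 0 TPM in all 3 Parental libraries. The ninth tested gene, ELAVL2, was not called (log2 fold change 1.85 ± 1.93, edgeR adjusted p = 0.715).

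The block ran from TUSC1, which starts at 25676389, to LINGO2, which ends at 28670286. The tested genes named on either side were on in both lines. KLHL9, at 21329671 to 21335380, had 6.11, 7.66 and 4.07 TPM in EM2, against 5.57, 8.53 and 11 TPM in Parental and was not called (log2 fold change -0.57 ± 0.24, edgeR adjusted p = 0.227). ACO1, at 32384603 to 32454769, had 6.98, 7 and 6.87 TPM in EM2, against 3.71, 5.07 and 4.38 TPM in Parental and was not called (log2 fold change 0.58 ± 0.20, edgeR adjusted p = 0.106). The tumour suppressor genes CDKN2A and CDKN2B and the neighbouring MTAP, between KLHL9 and TUSC1, did not exceed 0.01 TPM in any of the 6 libraries and were not tested. Across the lines the block was on in some clones and off in others: PLAA averaged 15.2 ± 2.08 TPM in EM2, 19.3 ± 4.17 TPM in M1 and 34.5 ± 8.85 TPM in M2, against 0.0467 ± 0.0503 TPM in E, 0.00333 ± 0.00577 TPM in EM1, 0.0233 ± 0.0321 TPM in EM3 and 0.0333 ± 0.0231 TPM in Parental (SD, n = 3 each).

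On the long arm of the X chromosome a cluster of small genes of the ARMCX, BEX and TCEAL families was off in EM2 and on in Parental. BEX3, a small adaptor protein studied mainly in neurons, had 0.09, 0 and 0 TPM in EM2, against 22.1, 32.1 and 22.1 TPM in Parental, lower by 986-fold (95% counting interval 273 to 8144, edgeR adjusted p = 5.08e-10). TCEAL9, a small protein named for likeness to an elongation factor, had 0.05, 0.15 and 0.08 TPM in EM2, against 11.7, 13.3 and 16.9 TPM in Parental (log2 fold change -7.39 ± 0.33, edgeR adjusted p = 1.91e-10). ARMCX3, a mitochondrial armadillo-repeat protein, had 0, 0.01 and 0 TPM in EM2, against 2.19, 3.11 and 2.87 TPM in Parental, lower by 537-fold (95% counting interval 96.3 to 21197, edgeR adjusted p = 3.67e-09). Its neighbour ARMCX6 had 0 TPM in all 3 EM2 libraries, against 2.08, 3.35 and 3.79 TPM in Parental, at least 92-fold lower (edgeR adjusted p = 1.21e-06). BEX1 had 0.04, 0 and 0 TPM in EM2, against 4.26, 2.13 and 2.71 TPM in Parental, lower by 228-fold (95% counting interval 41 to 9025, edgeR adjusted p = 4.27e-06). The genes of these families are alike in sequence, so reads may have been split between members. Genes lying among them did not follow. MORF4L2, a chromatin protein, had 279, 256 and 220.2 TPM in EM2, against 299, 285 and 296 TPM in Parental (log2 fold change -0.14 ± 0.14, edgeR adjusted p = 0.695). TCEAL4 had 60.2, 67.3 and 96.5 TPM in EM2, against 130.4, 113 and 76.9 TPM in Parental (log2 fold change -0.32 ± 0.23, edgeR adjusted p = 0.551). TCEAL8 had 14.3, 23.5 and 11.7 TPM in EM2, against 15.6, 18.1 and 22 TPM in Parental (log2 fold change -0.34 ± 0.32, edgeR adjusted p = 0.669). BEX3 averaged 24.2 ± 0.748 TPM in E, 33.6 ± 3.74 TPM in EM1 and 46.8 ± 8.02 TPM in EM3, 44.3 ± 7.42 TPM in M1 and 3.28 ± 1.35 TPM in M2 (SD, n = 3 each).

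**Figure D4:**
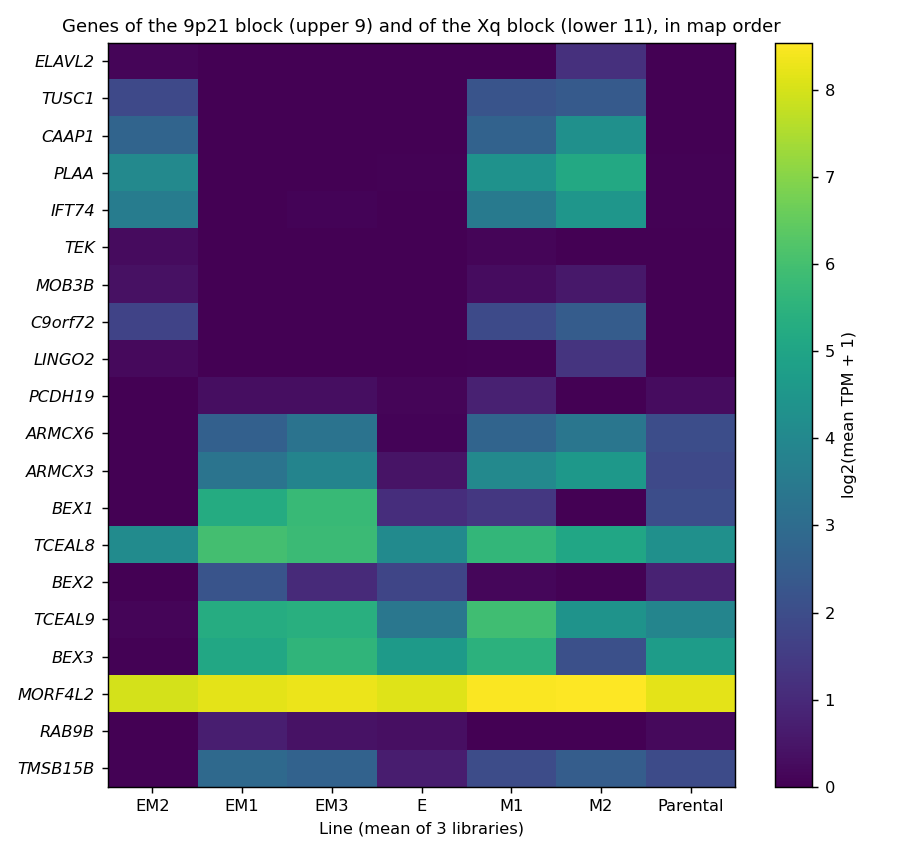
Colour gives log2(mean TPM + 1) over 3 libraries in each line, from EM2 at the left to Parental at the right, for 9 genes of 9p21 (upper rows) and 11 genes of the Xq cluster (lower rows) in map order. PLAA, IFT74 and CAAP1 are on in EM2, M1 and M2 and near 0 in the other lines, and of the Xq genes drawn TCEAL8 and MORF4L2 are on in EM2 while the rest are near 0 there.

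Called genes were also counted by their position along the chromosomes. With the genome cut into windows of 10 Mb by gene start, 279 windows held at least 20 tested genes, and in 13 of them at least 20% of those were called, limits that were chosen after seeing the data. These 13 windows held 18.3% of the called genes with a position but 3.57% of the tested genes. The windows were picked for their high share of called genes, so this excess follows from the choice. In the first 10 Mb of chromosome 12, 42 of 127 genes were lower and 1 was higher, against 3.17% and 2.32% of all genes. The median log2 fold change there was −0.90. NDUFA9, of respiratory complex I, had 162, 139 and 159 TPM in EM2, against 300.1, 322 and 284 TPM in Parental (log2 fold change -1.01 ± 0.19, edgeR adjusted p = 0.00289). USP5, a ubiquitin protease, had 23.9, 44.6 and 44.6 TPM in EM2, against 69.6, 73.2 and 77.2 TPM in Parental (log2 fold change -1.12 ± 0.18, edgeR adjusted p = 0.000707). The DNA repair gene RAD52 had 3.02, 2.43 and 2.59 TPM in EM2, against 4.62, 7.95 and 7.91 TPM in Parental (log2 fold change -1.69 ± 0.31, edgeR adjusted p = 0.00223). FOXM1, TEAD4, ENO2 and SLC2A3, described above, lie in this window too. The same window had medians of −0.45 for EM1 and −0.44 for EM3 against Parental. Without 1 library at a time 30 to 36 genes of the window were called.

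At the end of chromosome 3 the genes fell together as well. From 190 to 200 Mb, 26 of 65 genes were called, all lower, with a median of −0.82, and from 180 to 190 Mb it was 15 of 66 with a median of −0.57. Over all genes 3.17% were lower and 2.32% higher, and the windows among the 13 were picked for their share of calls. OPA1, which fuses mitochondrial inner membranes, had 43.5, 42.3 and 35.3 TPM in EM2, against 132, 144 and 152 TPM in Parental (log2 fold change -2.01 ± 0.24, edgeR adjusted p = 3.37e-05). NCBP2, of the cap-binding complex, had 49.9, 42.9 and 43.4 TPM in EM2, against 100.04, 106 and 70.0 TPM in Parental (log2 fold change -1.14 ± 0.15, edgeR adjusted p = 0.000126). ST6GAL1, a sialyltransferase of the Golgi, had 0.72, 2.21 and 1.16 TPM in EM2, against 10.7, 15.8 and 22.2 TPM in Parental (log2 fold change -3.61 ± 0.47, edgeR adjusted p = 8.76e-05). On chromosome 1, 16 of 49 genes from 170 to 180 Mb were lower, with a median of −0.93, among them PRDX6, a peroxide-reducing enzyme, with 100.39, 75.4 and 104 TPM in EM2, against 197, 186 and 167 TPM in Parental (log2 fold change -1.09 ± 0.18, edgeR adjusted p = 0.000995). In the next 10 Mb, GLUL, which makes glutamine, had 0.1, 0.34 and 0.06 TPM in EM2, against 4.43, 6.48 and 5.18 TPM in Parental (log2 fold change -5.55 ± 0.32, edgeR adjusted p = 3.55e-09). The window of chromosome 18 from 30 to 40 Mb had 9 of 38 genes lower, and it holds DSC2 and DSC3, so 2 of the desmosome genes counted above lie in it. PKP1, PKP2 and EPCAM lie in windows outside the 13 whose medians were also below 0. These were −0.425 on chromosome 1 from 200 Mb (12 of 102 lower), −0.52 on chromosome 12 from 30 Mb (2 of 30) and −0.45 on chromosome 2 from 40 Mb (5 of 43). The window of chromosome 13 from 110 to 120 Mb went the other way, with 12 of 42 genes higher and a median of 0.69. GAS6, the ligand of AXL, had 261, 195 and 151 TPM in EM2, against 75.3, 57.8 and 86.6 TPM in Parental (log2 fold change 1.36 ± 0.27, edgeR adjusted p = 0.00469). RASA3, a brake on RAS, had 27.3, 27 and 17.7 TPM in EM2, against 6.11, 7.79 and 8.46 TPM in Parental (log2 fold change 1.60 ± 0.16, edgeR adjusted p = 6.01e-06). Among the 13, the windows described here had medians of 0.01 to 0.29 in EM1 and EM3 against Parental, apart from the start of chromosome 12. Without 1 library at a time the number called from 190 Mb on chromosome 3 was 12 to 18, with 12 without EM2 replicate 1 and 15 or 16 without any other except Parental replicate 3. From 180 Mb on that chromosome it was 7 to 12, the lowest without EM2 replicate 3. From 170 Mb on chromosome 1 it was 10 without EM2 replicate 3 and 12 to 15 without another library. On chromosome 18 it was 4 without EM2 replicate 1 and 5 without EM2 replicate 3 or Parental replicate 2, and on chromosome 13 it was 7 without EM2 replicate 1 or Parental replicate 2.

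**Figure D5:**
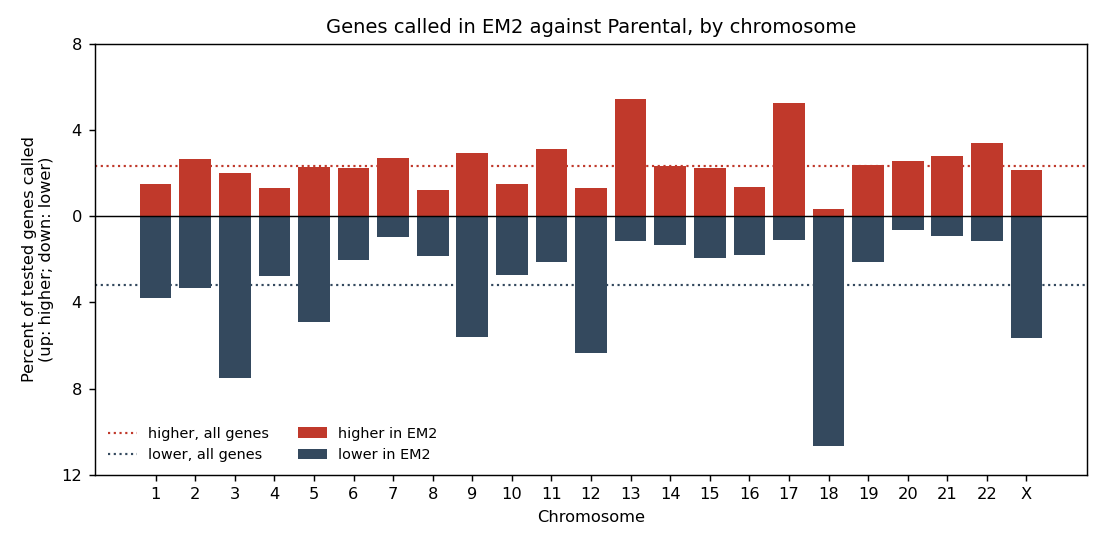
Percent of the tested genes on each chromosome called higher (up from 0) or lower (down from 0) in EM2 than in Parental, with dotted lines at the shares over all genes, 2.32% and 3.17%. Chromosome 18 has the longest lower bar at 10.7%, and chromosomes 13 and 17 have the tallest higher bars at 5.44% and 5.27%.

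Many differences from Parental also set EM2 apart from EM1 and EM3. EM2 differed from EM1 in 1516 genes (8.14%) and from EM3 in 1255 genes (6.74%) in the same edgeR fit, while EM1 differed from Parental in 374 genes (2.01%) and EM3 in 689 genes (3.70%). These comparisons share libraries, so the counts are not independent of each other. Of the 1024 genes called against Parental, 470 (45.9%) were called with the same sign against both EM1 and EM3, 171 of them higher (0.918% of all genes) and 299 lower (1.60%). TBX3, FOXC2, SOD3, NRN1 and 9p21 genes were among the 10 largest of these increases, and HORMAD1, PRKAA2, ZNF711, TDRD5, IFI27 and X-linked genes among the 10 largest of the decreases. The mesenchymal genes split. VIM averaged 963 ± 435 TPM in EM2, 706 ± 98.5 TPM in EM1 and 1255 ± 223 TPM in EM3, against 127 ± 54 TPM in Parental (SD, n = 3 each), and EM2 was not called apart from EM1 (log2 fold change 0.45, edgeR adjusted p = 0.434) or from EM3 (-0.33, edgeR adjusted p = 0.662). COL6A3 averaged 49.3 ± 9.06 TPM in EM2, 1.76 ± 0.447 TPM in EM1 and 25.1 ± 2.42 TPM in EM3, against 1.45 ± 0.269 TPM in Parental. EM2 was called above EM1 (log2 fold change 4.81, edgeR adjusted p = 5.66e-07) but not above EM3 (1.05, edgeR adjusted p = 0.101). TWIST2 averaged 13.8 ± 1.22 TPM in EM2, 2.58 ± 0.0721 TPM in EM1 and 3.27 ± 0.367 TPM in EM3, against 4.28 ± 1.03 TPM in Parental, and EM2 was above EM1 (2.45, edgeR adjusted p = 1.23e-07) and EM3 (2.20, edgeR adjusted p = 5.12e-07) as well.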

How the data were processed

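Polyadenylated RNA of 7 SUM149PT lines was sequenced in 3 libraries per line, single-end per the labels. Per the submitters' processing notes bcl2fastq 2.20.0.422, cutadapt 2.4, STAR 2.7.2b, RSEM 1.3.2 and hg38 were used; the annotation release and the strand setting are not given in the sources used here. The deposited tables hold, per gene and library, the authors' RSEM expected counts, TPM and effective lengths in bases. Of 60617 rows, 60596 had a symbol and 58542 an entry in GENCODE release 29, whose GRCh38 positions are printed. Expected counts were rounded to whole numbers, since 7.4 to 8.6% were not whole, and tested with edgeR 4.0.16 in R 4.3.3 (filterByExpr by line, TMM, robust quasi-likelihood F-test, 1 mean per line over all 21 libraries, 14 residual degrees of freedom, Benjamini-Hochberg adjusted p over 18632 genes, threshold 0.05). The standard error is the log2 fold change divided by the square root of F. Where a line had no count, the fold is a bound at 3 counts over the group; with 1 to 3 counts it is a ratio of CPM (counts scaled to library size) with an exact 95% Poisson interval. Floors and intervals cover counting error only. TPM served for levels. The script was tested on simulated data.

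Named genes are protein-coding, called, with no overlap of CPM between the lines and a mean CPM of at least 1: the 15 largest changes each way, every such gene of the 29 lists, and the 10 largest each way among genes also called with the same sign against EM1 and EM3. Genes outside this rule are named as such, as context or as not called, and those shown for the positional windows were chosen after their values were seen. A gene that the rule and a list would name is not reported here. The comparison, the members and the lists were chosen with earlier results of these data known. Alternatives were DESeq2 1.42.0 size factors and Wald test, no low-count filter, limma 3.58.1 voom, limma-trend on log2(TPM + 1) of genes reaching 1 TPM, the 6 libraries alone, a replicate block, effective length as covariate, and leaving out each library. No set test was made. Python 3.11.15 with pandas 2.3.3 and matplotlib 3.10.9 made the tables and figures.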

Additional observations from a re-analysis of the deposited data

Results flagged for a closer look

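For the 19 genes below, the difference between EM2 and Parental was itself tested against the same difference in the other EM clones. This is the contrast of EM2 with EM1 and with EM3 in the edgeR fit, and each gene was called in both. In all, 470 genes met this condition with the same sign. The 19 were chosen among them for their large changes against Parental, by the rule for naming genes. The values are log2 fold changes on counts. Where a line has no or few counts they depend on the prior count edgeR adds, and they are no bounds. Among the genes that were higher in EM2, FOXC2 had 5.80 over EM1 and 4.49 over EM3 and TUSC1 had 7.38 over EM1 and 10.67 over EM3. SOD3 had 9.76 over EM1 and 9.76 over EM3. PLAA had 11.16 over EM1 and 9.70 over EM3 and CAAP1 had 9.36 over EM1 and 8.76 over EM3. NRN1 had 7.58 over EM1 and 7.77 over EM3 and IFT74 had 9.98 over EM1 and 7.96 over EM3. C9orf72 had 8.44 over EM1 and 10.43 over EM3 and TBX3 had 14.22 over EM1 and 10.02 over EM3. Among the genes that were lower in EM2, HORMAD1 had -10.97 over EM1 and -10.93 over EM3 and PRKAA2 had -10.40 over EM1 and -9.82 over EM3. BEX3 had -10.06 over EM1 and -10.47 over EM3 and ZNF711 had -10.57 over EM1 and -10.29 over EM3. TDRD5 had -9.45 over EM1 and -8.94 over EM3 and ARMCX6 had -10.21 over EM1 and -10.90 over EM3. ARMCX3 had -10.04 over EM1 and -10.65 over EM3 and ZNF732 had -7.95 over EM1 and -7.53 over EM3. IFI27 had -6.89 over EM1 and -7.04 over EM3 and PDZRN3 had -7.62 over EM1 and -6.84 over EM3. These genes were taken from those described in the report, so their groups are the same by choice. The 9p21 genes PLAA, IFT74, CAAP1, C9orf72 and TUSC1 were higher, and the X-linked genes BEX3, ARMCX3, ARMCX6 and ZNF711 were lower. The EM2 with EM1 and EM2 with EM3 contrasts use the same EM2 libraries, so they are not independent of each other.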

How the results depend on the processing

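No called result named above changed sign under any of the 14 alternatives. Of the 77 named genes, 49 kept their call in every alternative in which they could be tested and 28 lost it in at least 1; none lost it with the DESeq2 Wald test or the effective length covariate. The number of genes called, 1024 in all, with 433 higher and 591 lower in EM2, depended on the processing. With no low-count filter 1640 genes were called, 971 of them higher. DESeq2's Wald test gave 666 higher of 1529. Limma-trend on log2(TPM + 1) gave 661, of which 282 were lower. The fit of the 6 libraries alone gave 436, with 204 higher and 232 lower, and mean effective length as covariate gave 2416, with 1129 higher and 1287 lower. Leaving out 1 library at a time gave 571 to 808 calls, 238 to 339 higher and 304 to 469 lower. Of genes on the lists, 64 were called, against 149 with no low-count filter, 107 with effective length as covariate, and 42 to 63 without 1 library at a time. Apart from the filter and the left-out libraries, which change the genes or samples tested, the cause of these shifts was not tested. The labels do not say whether the replicate numbers pair the libraries. The deviations of same-numbered EM2 and Parental libraries from their line means correlated at 0.3102, 0.1279 and −0.2099. These values differ in sign and do not settle whether libraries were prepared in sets. A fit with the replicate number as a block called 1370 genes, 590 higher and 780 lower, with 76 on the lists, and none of the 77 named genes lost its call; ANKRD1, which stands outside the naming rule, did (adjusted p = 0.0573). The contrasts of EM2 with EM1 and EM3 were not rerun under the alternatives. Depth limits the genes that are near 0 in a line: their folds are bounds or carry wide intervals, and levels of a few hundredths of a TPM rest on single reads.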
